A study of Sorghum bicolor with 12 samples.

Results

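The loci described here are annotated with peroxidase activity or with the breakdown of hydrogen peroxide in the roots of sweet sorghum (Sorghum bicolor). They were the loci of the deposited expression table whose gene ontology (GO) column held either term and none of the terms for response to salt stress, response to abscisic acid, response to water deprivation or glutathione transferase activity. This gave 166 of the 34352 loci of the table, and 8 further loci with either term were left out by the exclusions. Of the 166 members, 159 held 1 annotated gene and 7 held 2, whose expression cannot be divided. The rule uses annotation and no measured value, although it was set with earlier results of these data known.

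The study compared the salt-sensitive line Roma with the salt-tolerant line M-81E, both at the three-leaf stage. Roots under salt (Roma-salt and M-81E-salt) were compared with control roots without added NaCl (Roma-CK and M-81E-CK). NaCl was raised in steps of 50 mM every 12 h and roots were taken 24 h after it reached 150 mM, a concentration known from the methods and absent from the sample labels. There were 3 libraries in each of the 4 groups, described by the study as biological replicates, and each line is a single genotype that stands for its tolerance class. Expression was measured by RNA sequencing and deposited as FPKM, the fragments of a transcript scaled to its length and to the mapped fragments of the library.

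Class III peroxidases are secreted plant heme enzymes that use hydrogen peroxide to oxidise phenolic compounds. In roots they are known for polymerising lignin and suberin and for cross-linking wall proteins, and they can also produce reactive oxygen species. Other members act inside the cell. Catalases split hydrogen peroxide in peroxisomes without a reducing partner, ascorbate peroxidases spend ascorbate that monodehydroascorbate reductases regenerate, and peroxiredoxins work through reactive cysteines and need no heme. NADPH oxidases of the respiratory burst family produce superoxide in the wall space, from which hydrogen peroxide arises, and carry the peroxidase term in the annotation although they do not break peroxide down. The members comprised 137 class III peroxidases, 7 NADPH oxidases, 5 peroxiredoxins, 4 monodehydroascorbate reductases, 3 catalases, 2 ascorbate peroxidases, 1 thioredoxin reductase and 7 loci of no stated class. A wall or extracellular term, which the choice of members did not use, was present for 137 of the 166, and a heme binding term for 64.

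Class III peroxidases form a large family in which neighbouring copies can be nearly identical. How fragments shared by such copies were assigned is not given in the sources used here, so differences between neighbouring copies are uncertain. All 166 members were above 0 FPKM in at least 1 library, 128 were above 0 in all 12, 121 had a mean of at least 1 FPKM over the 12 libraries, and 66 had a mean of at least 10 FPKM. A further 19 had a mean under 0.1 FPKM. The median of the members' means was 4.87 FPKM, against 0.835 FPKM for all loci of the table.

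The number of fragments behind each FPKM is not given. From the spacing of low values, the depth of the libraries relative to M-81E-CK1 lay between 0.814 and 1.04, with Roma-CK1 and M-81E-salt3 the shallowest. The FPKM summed over all loci lay between 267572 and 305677 per library. Loci assigned to root endodermis markers (10 loci) summed to 61.6 to 84.8 FPKM in Roma-salt and 75.2 to 88.5 FPKM in Roma-CK, and to 71.0 to 98.9 FPKM in M-81E-salt and 74.2 to 86.5 FPKM in M-81E-CK, ranges that overlapped in both lines. Loci of the light-harvesting antenna of chloroplasts (18 loci) summed to 16.4 to 21.6 FPKM in Roma-salt and 28.7 to 32.1 FPKM in Roma-CK, and to 13.9 to 27.2 FPKM in M-81E-salt and 12.02 to 35.8 FPKM in M-81E-CK. The Roma groups of this last list did not overlap, and the gap came from 1 locus of 2 genes, SORBI_3003G279400 with SORBI_3003G279500, at 0.0603 to 0.398 FPKM in Roma-salt and 8.45 to 16.8 FPKM in Roma-CK. The other 17 loci summed to 16.3 to 21.2 FPKM in Roma-salt and 14.3 to 20.3 FPKM in Roma-CK, which overlapped. The sums do not show single loci, and the largest part of the endodermis sum was SORBI_3009G224500, with a mean of 38.5 FPKM over the 12 libraries. By the DEG thresholds given below, 0 of the 10 endodermis loci tested in Roma were DEGs, and in M-81E 1 of 9 was higher in salt and 0 lower. Of the 17 antenna loci tested in Roma, 4 were lower in salt and 2 higher, against 4.44% and 5.15% of all loci. In M-81E 5 of 18 were lower and 0 higher, against 3.5% and 3.07%. These 5 loci each had a mean under 1 FPKM over the 12 libraries. At higher levels, SORBI_3004G176800 had 2.92 to 3.64 FPKM in M-81E-salt and 2.93 to 3.56 FPKM in M-81E-CK. The locus of SORBI_3002G214900 with SORBI_3002G215000 had 4.64 to 7.76 FPKM and 4.71 to 7.04 FPKM, and both overlapped.

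Expression was concentrated in few members. The 10 members with the highest means took 30.05 to 34.97% of the members' summed FPKM in Roma-salt libraries and 35.5 to 38.5% in Roma-CK, and 41.5 to 46.5% in M-81E-salt and 45.9 to 50.5% in M-81E-CK. The highest was the class III peroxidase SORBI_3009G055100, with 122, 158 and 56.9 FPKM in Roma-salt and 249, 295 and 352 FPKM in Roma-CK, and 348, 423 and 505 FPKM in M-81E-salt and 773, 713 and 628 FPKM in M-81E-CK. Its salt groups lay below the CK groups in both lines, and each Roma group lay below the M-81E group of the same treatment. The catalase SORBI_3010G274500 was next, followed by the class III peroxidases SORBI_3003G140700, SORBI_3006G079300, SORBI_3009G055300, the 2-gene locus SORBI_3009G145500 with SORBI_3009G145600, SORBI_3010G162000, SORBI_3005G011300, SORBI_3010G245800 and SORBI_3009G144900.

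Of these, SORBI_3006G079300 varied little within groups, with 88.1, 79.8 and 103 FPKM in Roma-salt and 140.3, 148 and 123.2 FPKM in Roma-CK, and 90.1, 108 and 111 FPKM in M-81E-salt and 125, 116 and 123.3 FPKM in M-81E-CK. The salt libraries lay below the CK libraries in both lines, with adjusted p = 0.103 in Roma and 0.403 in M-81E. Others differed several-fold between libraries of 1 group. SORBI_3010G162000 had 13.3, 21.3 and 60.8 FPKM in Roma-salt and 157, 39.96 and 41.8 FPKM in Roma-CK, and 71.6, 102 and 83.5 FPKM in M-81E-salt and 89.3, 44.5 and 261 FPKM in M-81E-CK, so its groups overlapped in both lines. SORBI_3009G055300 had 43.9, 79.8 and 22.7 FPKM in Roma-salt and 118, 52.2 and 173 FPKM in Roma-CK, and 127, 134 and 92.03 FPKM in M-81E-salt and 146, 146 and 29.1 FPKM in M-81E-CK, where 1 control library stood far below the others. SORBI_3005G011300 had 86.2, 12.6 and 67.1 FPKM in Roma-salt and 58.05, 56.9 and 71.9 FPKM in Roma-CK, and 95.2, 117 and 127 FPKM in M-81E-salt and 91.9, 57.4 and 98.9 FPKM in M-81E-CK. The median SD between libraries of a group, on the log2(FPKM + 1) scale, was 0.39 for the 121 members with a mean of at least 1 FPKM and 0.22 for all 16181 loci of that level.

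Summed over the 137 loci, class III peroxidase expression was lower under salt in both lines. The sums were 2016, 1844 and 1683 FPKM in Roma-salt and 2833, 2715 and 3250.0 FPKM in Roma-CK, and 2237, 2665 and 2456 FPKM in M-81E-salt and 3352, 3348 and 3028 FPKM in M-81E-CK. No salt library reached the lowest CK library of its line. The mean sum in salt was 0.630 times the CK mean in Roma and 0.756 times in M-81E. Without SORBI_3009G055100 these ratios were 0.659 and 0.799, and the groups still did not overlap. The sums of the 3 catalases went the other way, with 246, 221 and 286 FPKM in Roma-salt and 152, 143 and 148 FPKM in Roma-CK, and with 185, 179 and 175 FPKM in M-81E-salt and 115, 125 and 116 FPKM in M-81E-CK. The catalase sum in salt was 1.70 times the CK mean in Roma and 1.51 times in M-81E. Sums are given without a test.

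**Figure D1:**
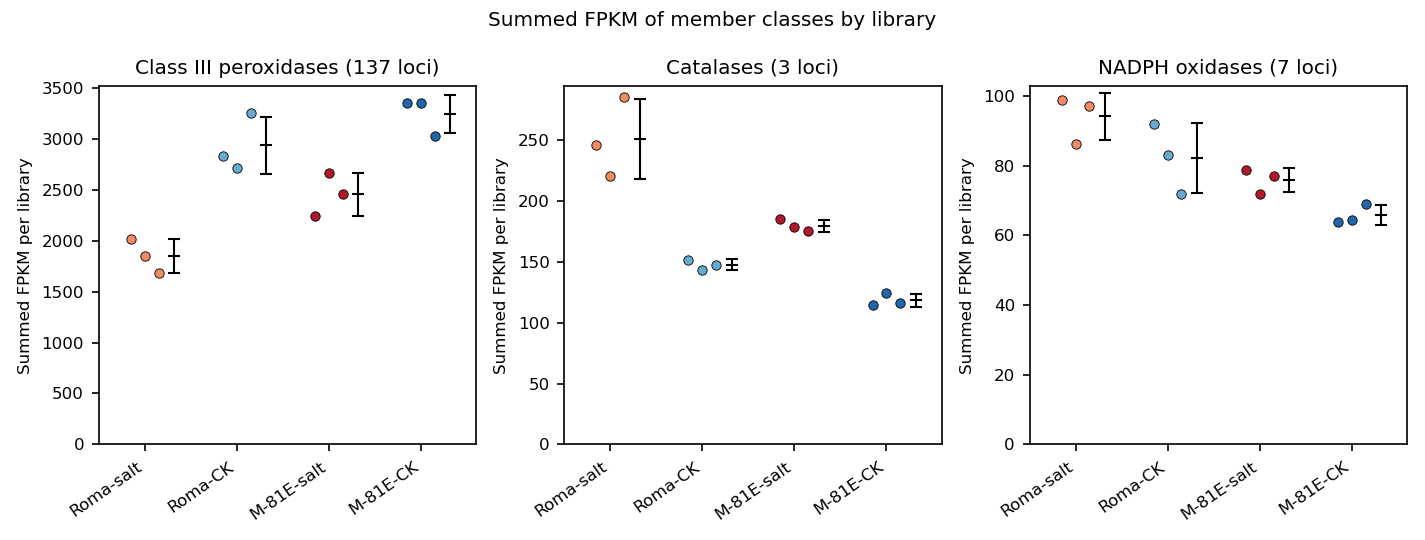
Summed FPKM per library (y axes, starting at 0) of the class III peroxidases, catalases and NADPH oxidases among the members, by group. Each point is 1 library and the bar beside it is the mean ± SD of 3 libraries. Class III sums lay at 1683 to 2016 FPKM in Roma-salt, below the 2715 to 3250.0 FPKM of Roma-CK, and catalase sums lay higher in salt than in CK in both lines.

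For single loci, a DEG had an unadjusted p under 0.05 in limma on log2(FPKM + 1) and group means whose log2 ratio was 1 or more in either direction, the thresholds of the study. Loci are said to rise or fall only where the Benjamini-Hochberg adjusted p over all loci tested was under 0.05. Of the 162 members tested in Roma (those with a value above 0 in any of the 6 libraries), 5 were up-regulated DEGs (3.09%), against a background of 5.15% of all loci tested, and 27 were down-regulated DEGs (16.7%), against 4.44%. Of the 163 members tested in M-81E, 9 were up-regulated DEGs (5.52%), against 3.07% of all loci, and 14 were down-regulated DEGs (8.59%), against 3.5%. Members had higher FPKM than most loci. At a mean of 1 FPKM or more, 23 of 121 members (19.0%) were down-regulated DEGs in Roma, against 4.82% of all such loci, and 4 were up-regulated (3.31%), against 4.21%. In M-81E, 13 of 118 such members (11.02%) were down-regulated DEGs, against 3.18%, and 6 were up-regulated (5.08%), against 2.25%.

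By adjusted p, 2 members rose and 7 fell in Roma (5.56% of those tested, against 1.82% of all loci), and 0 rose and 5 fell in M-81E (3.07%, against 0.826%). Of all loci that passed, 334 of 587 rose in Roma and 107 of 266 rose in M-81E. The groups did not overlap for 59 of the 162 members in Roma (36.4%), against 24.6% of all loci, and for 50 of the 163 in M-81E (30.7%), against 22.1%. The median log2 fold change was −0.15 for members in Roma and 0.0026 for all loci, and −0.02 for members in M-81E and 0.0075 for all loci. For the 66 members with a mean of at least 10 FPKM it was −0.53 in Roma, where 45 had a fold change below 0 (68.2%), and −0.14 in M-81E, where 39 did (59.1%). The shares below 0 were 50.3% and 47.1% for all 4518 loci of that level. Most adjusted calls rested on the full set of libraries, among members and among all loci. Over all loci, 77 to 252 passed in Roma with 1 library left out, against 587, and 96 to 200 in M-81E, against 266. Leaving out 1 of the 6 Roma libraries left 1 to 3 of the 9 members, with 1 left without Roma-salt1, Roma-salt2, Roma-CK1 or Roma-CK2, 2 without Roma-CK3 and 3 without Roma-salt3, and leaving out 1 of the 6 M-81E libraries left 1 of the 5 without M-81E-salt2 and 0 without any other library.

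Among the class III peroxidases of Roma, 26 of the 134 tested were down-regulated DEGs and 4 were up-regulated, against 4.44% and 5.15% of all loci. The highest member, SORBI_3009G055100, was a down-regulated DEG (log2 fold change −1.51 ± 0.401, SE) without passing the adjusted p (0.135), and in M-81E it was no DEG (−0.74 ± 0.21, adjusted p = 0.194). The member with the largest fold change was SORBI_3002G003500, which had 0.217, 0.571 and 0.0678 FPKM in Roma-salt and 6.33, 6.101 and 15.2 FPKM in Roma-CK. Every salt library was below 1 FPKM and every CK library above 6 FPKM, and the locus fell (log2 fold change −2.896 ± 0.37, adjusted p = 0.0342). In M-81E its groups overlapped, with 5.93, 5.15 and 1.76 FPKM in salt and 12.2, 7.22 and 3.02 FPKM in CK. SORBI_3003G140700, the third highest member by mean, had 58.97, 55.9 and 40.3 FPKM in Roma-salt and 177, 183 and 179.7 FPKM in Roma-CK. The CK libraries lay close together and far above the salt libraries, and the locus fell (−1.798 ± 0.16, adjusted p = 0.02098). It fell less far in M-81E, where it had 83.96, 96.6 and 89.3 FPKM in salt and 159, 160.3 and 146 FPKM in CK (−0.78 ± 0.11, adjusted p = 0.0497), and it did not reach the ratio for a DEG there. This M-81E call was lost after rescaling the libraries to a common median (adjusted p = 0.0555) and with a pseudocount of 0.1 (adjusted p = 0.0522).

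Of the 5 other class III peroxidases that fell in Roma, 3 did not pass the adjusted p in M-81E. SORBI_3010G149700 had 1.75, 1.27 and 0.858 FPKM in Roma-salt and 6.83, 5.17 and 4.42 FPKM in Roma-CK (−1.498 ± 0.22, adjusted p = 0.0421). SORBI_3002G416700 had 5.98, 5.72 and 8.903 FPKM in Roma-salt and 20.5, 18.2 and 20.3 FPKM in Roma-CK (−1.41 ± 0.17, adjusted p = 0.0311). SORBI_3010G128700 had 17.9, 24.1 and 17.3 FPKM in Roma-salt and 49.4, 42.6 and 37.9 FPKM in Roma-CK (−1.0999 ± 0.17, adjusted p = 0.0464). In each of these the highest salt library stayed below the lowest CK library, and the separation was wide relative to the spread within the groups. The locus SORBI_3010G128400, near SORBI_3010G128700 by identifier, had 13.1, 4.62 and 11.03 FPKM in Roma-salt and 41.9, 36.7 and 31.4 FPKM in Roma-CK and met the DEG thresholds without passing the adjusted p (−1.93 ± 0.36, adjusted p = 0.0707). SORBI_3004G273900 had 0, 5.87 and 1.61 FPKM in Roma-salt and 12.6, 11.2 and 14.5 FPKM in Roma-CK, and with 1 library listed at 0 it also missed the adjusted threshold (adjusted p = 0.156). In M-81E this locus was listed at 0 in 1 library of each group.

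Few class III peroxidases went the other way in Roma. SORBI_3003G121000 rose and kept an adjusted p under 0.05 when any 1 of the 6 Roma libraries was left out. It had 27.1, 24.7 and 28.4 FPKM in Roma-salt and 7.11, 6.89 and 8.14 FPKM in Roma-CK, with no overlap (log2 fold change 1.73 ± 0.098, adjusted p = 0.00743). In M-81E the same locus had 19.6, 8.43 and 21.95 FPKM in salt and 5.47, 6.55 and 18.4 FPKM in CK, where 1 control library reached the level of the salt libraries (adjusted p = 0.586). SORBI_3010G245500 had 3.75, 2.99 and 9.85 FPKM in Roma-salt and 0.449, 0.413 and 1.09 FPKM in Roma-CK, and 2.09, 1.98 and 1.95 FPKM in M-81E-salt and 1.001, 0.983 and 0.874 FPKM in M-81E-CK. It was an up-regulated DEG in both lines, at low levels, without passing the adjusted p (adjusted p = 0.0984 in Roma and 0.0818 in M-81E). SORBI_3004G106100 was an up-regulated DEG in Roma (adjusted p = 0.1903), with 2.71, 2.64 and 3.51 FPKM in Roma-salt and 0.5104, 1.85 and 1.43 FPKM in Roma-CK.

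In M-81E, 14 of the 135 class III peroxidases tested were down-regulated DEGs and 7 were up-regulated, against 3.5% and 3.07% of all loci. SORBI_3006G277700 had 4.42, 3.98 and 3.88 FPKM in M-81E-salt and 10.6, 13.1 and 17.9 FPKM in M-81E-CK, and fell (log2 fold change −1.52 ± 0.19, adjusted p = 0.0402). The 3 salt libraries lay close together while the CK libraries spread more widely. In Roma it had 8.23, 13.7 and 5.22 FPKM in salt and 14.05, 18.9 and 19.5 FPKM in CK, and did not pass (adjusted p = 0.222). SORBI_3002G416600 had 12.8, 13.4 and 13.8 FPKM in M-81E-salt and 28.6, 24.9 and 33.6 FPKM in M-81E-CK and fell (−1.06 ± 0.12, adjusted p = 0.0369). In Roma it was a down-regulated DEG with 11.8, 11.2 and 7.19 FPKM in salt and 21.2, 21.01 and 35.4 FPKM in CK (adjusted p = 0.0888).

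SORBI_3009G145700 and SORBI_3009G032600 fell in both lines. The first had 11.1, 8.62 and 9.56 FPKM in Roma-salt and 19.8, 22.5 and 19.96 FPKM in Roma-CK (−1.02 ± 0.12, adjusted p = 0.0298). In M-81E it had 18.3, 17.5 and 20.8 FPKM in salt and 38.7, 37.5 and 50.7 FPKM in CK (−1.12 ± 0.15, adjusted p = 0.0447). Its levels were higher in M-81E than in Roma under both treatments, and its M-81E-salt libraries lay near the level of the Roma-CK libraries. SORBI_3009G032600 had 51.9, 49.2 and 43.4 FPKM in Roma-salt and 77.1, 89.6 and 81.1 FPKM in Roma-CK (−0.77 ± 0.11, adjusted p = 0.0412), and 40.5, 52.5 and 39.98 FPKM in M-81E-salt and 90.1, 94.2 and 95.8 FPKM in M-81E-CK (−1.07 ± 0.13, adjusted p = 0.0396). Salt libraries of the lines lay in the same range for this locus, and it did not reach the ratio for a DEG in Roma. The Roma call was lost after the same rescaling (adjusted p = 0.0583).

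Other down-regulated DEGs of M-81E had larger spread. SORBI_3009G144900 had 37.5, 58.1 and 63.4 FPKM in M-81E-salt and 141, 206 and 136 FPKM in M-81E-CK (−1.59 ± 0.26, adjusted p = 0.0769). SORBI_3001G189000 had 4.59, 5.27 and 9.31 FPKM in M-81E-salt and 17.3, 15.7 and 23.3 FPKM in M-81E-CK (−1.45 ± 0.27, adjusted p = 0.0944). SORBI_3001G189000 was also a down-regulated DEG in Roma, with 13.2, 6.01 and 14.4 FPKM in salt and 40.4, 23.2 and 31.1 FPKM in CK (adjusted p = 0.116). The 2-gene locus SORBI_3009G145500 with SORBI_3009G145600 had 34.7, 62.9 and 85.4 FPKM in M-81E-salt and 130.3, 104 and 151 FPKM in M-81E-CK (adjusted p = 0.2199). SORBI_3003G152100 had 6.43, 13.1 and 11.2 FPKM in M-81E-salt and 13.4, 36.7 and 23.7 FPKM in M-81E-CK (adjusted p = 0.291). In all 4 loci the groups did not overlap and the adjusted p was above 0.05. The up-regulated DEGs named for M-81E among class III peroxidases were SORBI_3002G391700, with 2.801, 3.04 and 3.59 FPKM in salt and 0, 1.54 and 1.78 FPKM in CK (adjusted p = 0.295), and the 3 loci SORBI_3010G245500, SORBI_3003G152200 and SORBI_3009G032900.

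Down-regulated DEGs of the lines overlapped in part. There were 4 members down-regulated in both, SORBI_3001G189000, SORBI_3002G416600, SORBI_3002G416700 and SORBI_3009G145700, which made 14.8% of the 27 in Roma and 28.6% of the 14 in M-81E. Over all loci the 209 down-regulated in both made 14.6% of those in Roma and 18.5% of those in M-81E. The catalase SORBI_3004G011566 and SORBI_3010G245500 were up-regulated DEGs in both lines, 40.0% of the 5 in Roma and 22.2% of the 9 in M-81E, against 10.9% and 18.3% over all loci. Down-regulation in Roma with up-regulation in M-81E was found for 2 members, SORBI_3003G152200 and SORBI_3009G032900. They made 7.41% of the 27 in Roma and 22.2% of the 9 in M-81E, against 2.93% and 4.25% over all loci (42 loci). The reverse was found for 0 members and for 36 of all loci. Those 36 made 2.16% of the up-regulated loci of Roma and 3.19% of the down-regulated loci of M-81E. Among the 121 members with a mean of at least 1 FPKM, the fold change was below 0 in both lines for 54 (44.6%), above 0 in both for 19 (15.7%), below 0 in Roma and above 0 in M-81E for 32 (26.4%), and above 0 in Roma and below 0 in M-81E for 16 (13.2%). The shares of all 16181 loci of that level were 27.1%, 30.2%, 23.2% and 18.4% in the same order.

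**Figure D2:**
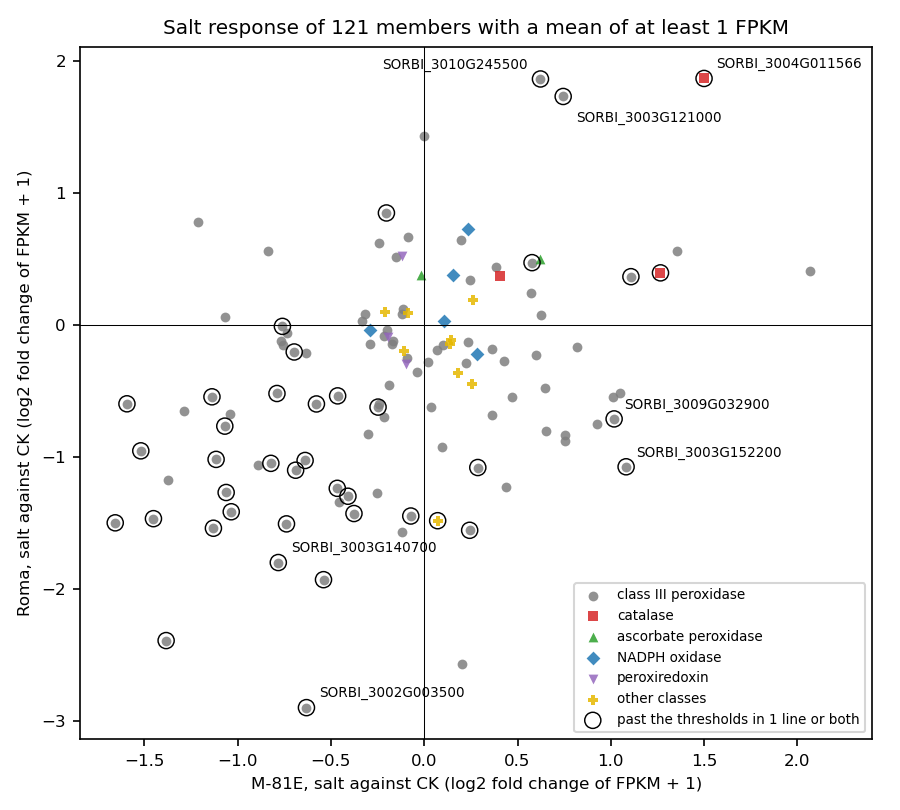
Limma log2 fold change, salt against CK on log2(FPKM + 1), in M-81E (x axis) and Roma (y axis) for the 121 members with a mean of at least 1 FPKM. Each point is 1 locus, colour and shape give the class, and rings mark DEGs of 1 line or both. The lower left quadrant holds 54 loci, and SORBI_3003G152200 and SORBI_3009G032900 lie in the lower right.

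The salt response differed between the lines, by the interaction of line and treatment with an adjusted p under 0.05 over the 12 libraries, for 3 of the 166 members (1.81%), the same share as over all loci (621 of 34352, 1.81%). All 3 were class III peroxidases, the class of 137 of the 166 members, with a lower response in Roma than in M-81E. Of the 621 loci that passed, 273 had a lower response in Roma. SORBI_3003G152200 had 11.1, 12.2 and 7.502 FPKM in Roma-salt and 20.1, 20.7 and 26.7 FPKM in Roma-CK, but 18.8, 20.3 and 24.1 FPKM in M-81E-salt and 10.9, 10.8 and 6.95 FPKM in M-81E-CK. The libraries of the Roma-salt group lay near those of M-81E-CK, and those of Roma-CK near those of M-81E-salt. The response in Roma minus that in M-81E was −2.16 ± 0.299 on the log2 scale (SE, adjusted p = 0.010001). Within each line it was a DEG without passing the adjusted p (−1.07 ± 0.21, adjusted p = 0.0715 in Roma and 1.08 ± 0.195, adjusted p = 0.0869 in M-81E).

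SORBI_3009G032900 had 0.771, 1.22 and 0.207 FPKM in Roma-salt and 1.68, 1.28 and 2.41 FPKM in Roma-CK, and 3.47, 3.71 and 3.77 FPKM in M-81E-salt and 1.93, 1.01 and 1.05 FPKM in M-81E-CK. At these low levels it was down-regulated in Roma and up-regulated in M-81E by the DEG thresholds, and the difference in response was −1.73 ± 0.34 (adjusted p = 0.0398). With a pseudocount of 0.1 the difference was −2.82 and did not pass (adjusted p = 0.0865), and leaving out 1 library gave adjusted p between 0.03096 and 0.0890 with 3 of 12 fits passing. For SORBI_3003G140700 both lines moved downwards and the fall was deeper in Roma, by −1.02 ± 0.19 (adjusted p = 0.0344). Its call was lost after rescaling to a common median (adjusted p = 0.0589) and with replicate number as a block (adjusted p = 0.0674). With 1 library left out, its adjusted p lay between 0.0199 and 0.0750 and passed only where that was a Roma-salt library. The count of members was 1 under leaving out M-81E-CK2, M-81E-salt1, M-81E-salt2, Roma-CK1 or Roma-CK3, and 6 without Roma-salt2. Over all loci it lay between 292 and 598 with 1 library left out, against 621. SORBI_3003G152200 passed under every alternative tried for the interaction.

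**Figure D3:**
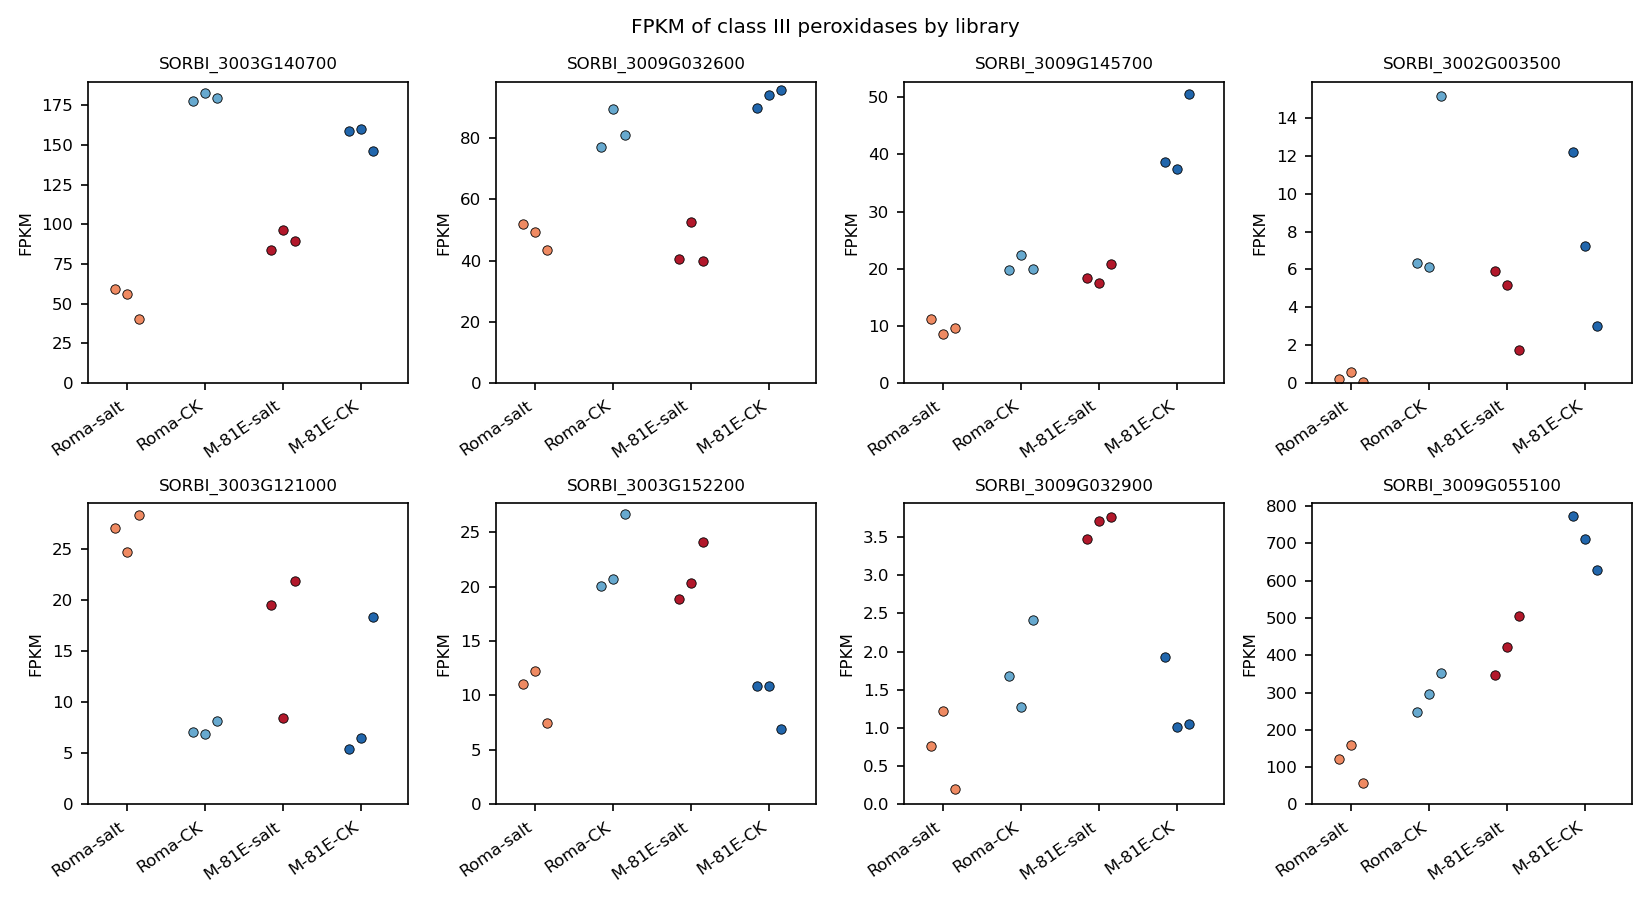
FPKM (y axes, starting at 0, a separate scale per panel) of 8 class III peroxidases in the 12 libraries. Each point is 1 library. SORBI_3003G140700, SORBI_3009G032600, SORBI_3009G145700 and SORBI_3009G055100 lie lower in salt than in CK in both lines, SORBI_3003G121000 is higher in Roma-salt than in Roma-CK, and SORBI_3003G152200 and SORBI_3009G032900 are lower in Roma-salt than in Roma-CK but higher in M-81E-salt than in M-81E-CK.

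All 3 catalases had a positive fold change under salt in both lines. The main one, SORBI_3010G274500, had 146, 148 and 169.7 FPKM in Roma-salt and 122, 115 and 121 FPKM in Roma-CK, and 137, 143 and 149 FPKM in M-81E-salt and 104, 113 and 105 FPKM in M-81E-CK. The groups did not overlap in either line, but the change was small and did not pass the adjusted p (log2 fold change 0.37 ± 0.11, adjusted p = 0.159 in Roma and 0.41 ± 0.098, adjusted p = 0.149 in M-81E). SORBI_3004G011566 had 91.8, 66.3 and 112 FPKM in Roma-salt and 26.6, 24.5 and 19.8 FPKM in Roma-CK, and rose (1.86 ± 0.22, adjusted p = 0.03098). In M-81E it had 42.4, 30.1 and 13.7 FPKM in salt and 8.27, 9.54 and 7.998 FPKM in CK, again without overlap but with a wide spread among the salt libraries (1.4999 ± 0.398, adjusted p = 0.173). The difference in response between the lines was 0.36 ± 0.49 (adjusted p = 0.776).

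The third catalase, SORBI_3001G517700, was lower, with 8.23, 6.47 and 4.21 FPKM in Roma-salt and 3.42, 3.74 and 6.57 FPKM in Roma-CK, and 5.91, 5.75 and 12.3 FPKM in M-81E-salt and 2.37, 2.25 and 3.07 FPKM in M-81E-CK. It was an up-regulated DEG in M-81E (adjusted p = 0.139), and in Roma the groups overlapped. Of the ascorbate peroxidases, SORBI_3007G177000 had 46.2, 43.3 and 49.1 FPKM in Roma-salt and 35.5, 25.5 and 37.6 FPKM in Roma-CK, and 51.6, 57.8 and 39.5 FPKM in M-81E-salt and 23.1, 36.97 and 36.6 FPKM in M-81E-CK. Its salt libraries lay above the CK libraries in both lines, with adjusted p = 0.199 in Roma and 0.302 in M-81E. SORBI_3006G021100 had 9.52, 9.12 and 12.4 FPKM in Roma-salt and 8.53, 6.57 and 8.08 FPKM in Roma-CK, and 5.97, 8.23 and 5.27 FPKM in M-81E-salt and 6.52, 6.43 and 6.49 FPKM in M-81E-CK, and did not pass in either line (adjusted p = 0.2901 and 0.9698).

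None of the 7 NADPH oxidases was a DEG under salt in either line, and 5 had means of at least 1 FPKM. Their sums were 98.9, 86.3 and 97.1 FPKM in Roma-salt and 91.8, 83.1 and 71.8 FPKM in Roma-CK, and 78.8, 71.99 and 76.99 FPKM in M-81E-salt and 63.9, 64.4 and 69.1 FPKM in M-81E-CK. The Roma groups overlapped and the M-81E groups did not. The locus with the largest fold change in Roma, chosen after its values were seen, was SORBI_3003G347520, with 29.2, 24.3 and 29.9 FPKM in Roma-salt and 19.8, 18.2 and 11.98 FPKM in Roma-CK (log2 fold change 0.73 ± 0.204, adjusted p = 0.148). None of the 5 peroxiredoxins, 4 monodehydroascorbate reductases or the thioredoxin reductase was a DEG under salt in either line. Over all loci, 5.15% were up-regulated and 4.44% down-regulated DEGs in Roma, and 3.07% and 3.5% in M-81E. At these shares, 0 DEGs among so few loci does not set these classes or the NADPH oxidases apart. Among the 7 loci of no stated class, 1 was a down-regulated DEG in Roma, SORBI_3003G391900, with 4.4999, 7.57 and 2.23 FPKM in Roma-salt and 13.2, 13.9 and 14.6 FPKM in Roma-CK (adjusted p = 0.106). This locus was also named after its values were seen.

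**Figure D4:**
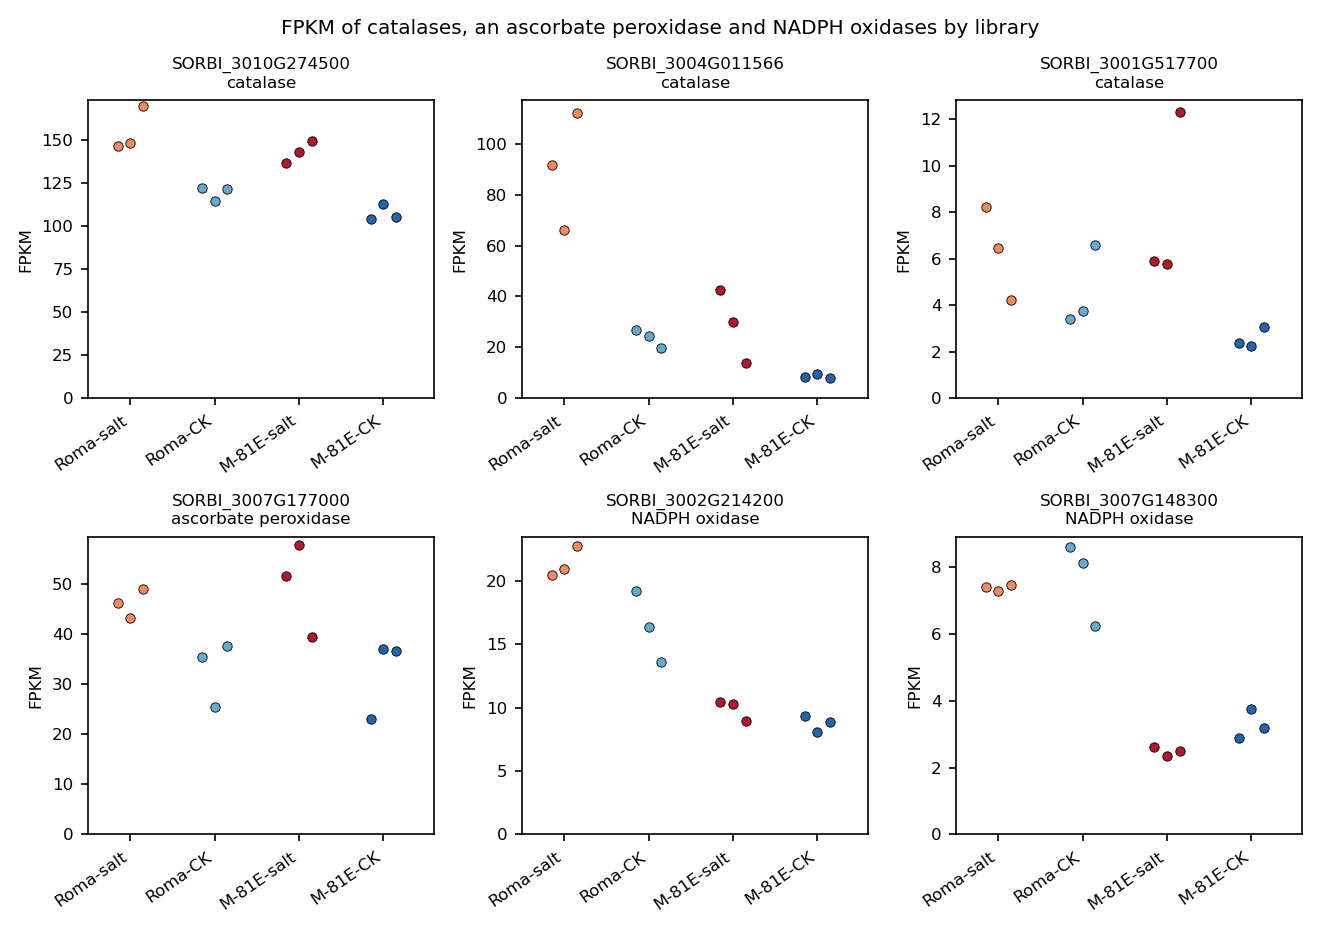
FPKM (y axes, starting at 0, a separate scale per panel) of the 3 catalases, the ascorbate peroxidase SORBI_3007G177000 and the NADPH oxidases SORBI_3002G214200 and SORBI_3007G148300 in the 12 libraries. Each point is 1 library. The catalase SORBI_3004G011566 lies at 66.3 to 112 FPKM in Roma-salt, above the 19.8 to 26.6 FPKM of Roma-CK, and both NADPH oxidases are higher in Roma than in M-81E.

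Other enzymes of the pathway were read from a list of loci outside the members. Of 8 superoxide dismutases, which make hydrogen peroxide from superoxide, 0 were DEGs under salt in either line, and 1 rose in Roma by the adjusted p. This was SORBI_3006G185700, with 13.1, 11.1 and 13.3 FPKM in Roma-salt and 7.76, 6.42 and 6.98 FPKM in Roma-CK (log2 fold change 0.74 ± 0.11, adjusted p = 0.0456). Of 4 glutathione reductases, 0 were DEGs in Roma and 1 was a down-regulated DEG in M-81E. None of 2 further monodehydroascorbate reductases, 2 alternative oxidases, 3 left-out ascorbate peroxidases or 2 left-out class III peroxidases was a DEG under salt in either line. The other 3 left-out loci held 1 up-regulated DEG, the same locus in both lines. At the shares of DEGs over all loci, 0 in lists this small does not set them apart.

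Many class III members have identifiers that follow each other closely. When members whose numbers lay at most 300 apart were joined, 93 members fell into 27 runs of 2 or more, and 54 fell into 11 runs of 4 or more. Identifiers follow gene order, but no coordinates were used here. The largest run, SORBI_3002G391200 to SORBI_3002G392300 with 10 members, summed to 108 ± 10.4 FPKM in Roma-salt and 187 ± 10.1 FPKM in Roma-CK, and to 95.95 ± 21.01 FPKM in M-81E-salt and 82.8 ± 7.04 FPKM in M-81E-CK (SD, n = 3). Its sum was lower under salt in Roma and not in M-81E, and 1 of its members was a down-regulated DEG in Roma and 2 were up-regulated DEGs in M-81E. The run SORBI_3002G416500 to SORBI_3002G416900, with 5 members, summed to 28.4 ± 1.65 FPKM in Roma-salt and 58.8 ± 7.61 FPKM in Roma-CK, and to 23.2 ± 2.96 FPKM in M-81E-salt and 46.6 ± 6.44 FPKM in M-81E-CK. It held 2 down-regulated DEGs in Roma and 3 in M-81E, and its sum in salt was below CK in both lines. For the runs here and below, the shares of all loci were 5.15% up-regulated and 4.44% down-regulated in Roma, and 3.07% and 3.5% in M-81E.

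Members of a run did not all move together. In SORBI_3003G151900 to SORBI_3003G152200, with 4 members, SORBI_3003G152100 was a down-regulated DEG in M-81E while its neighbour SORBI_3003G152200 was an up-regulated DEG. The log2 fold changes in M-81E were −1.13 and 1.08, and in Roma they were −1.54 and −1.07. In SORBI_3009G032600 to SORBI_3009G032900, with 4 members, all 4 fold changes were below 0 in Roma, whereas in M-81E 1 was below 0 and SORBI_3009G032900 was an up-regulated DEG. In SORBI_3010G161600 to SORBI_3010G162000, with 5 members, all 5 fold changes were below 0 in Roma and 3 of them were DEGs, and in M-81E 0 were DEGs. The smallest in size in Roma was −0.058. The sums of this run were 24.7, 33.3 and 69.9 FPKM in Roma-salt and 184, 60.3 and 86.1 FPKM in Roma-CK, which overlapped. In SORBI_3010G245300 to SORBI_3010G245800, with 4 members, 1 member was up-regulated and 1 down-regulated in Roma. These runs were picked for description after their values were seen.

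**Figure D5:**
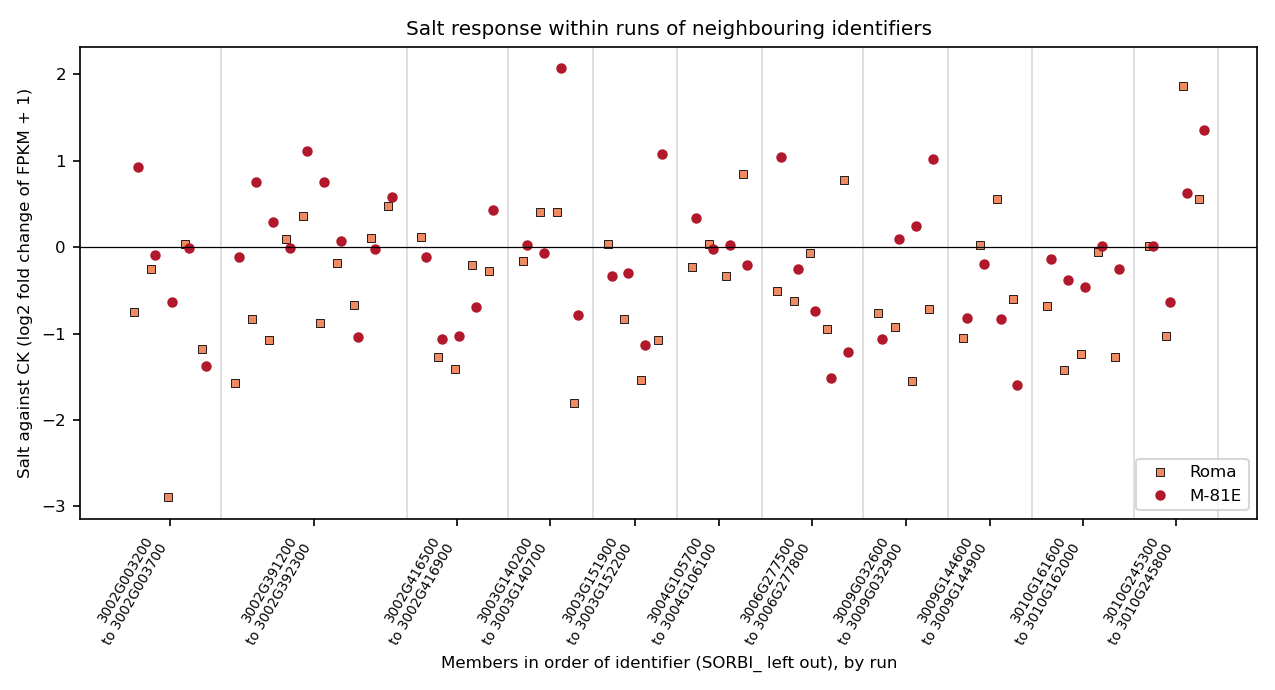
Limma log2 fold change, salt against CK on log2(FPKM + 1) (y axis), of the 54 members in the 11 runs of at least 4 neighbouring identifiers, in order of identifier (x axis), for Roma (squares) and M-81E (circles). In the run SORBI_3010G161600 to SORBI_3010G162000 all 5 Roma values lie below 0, and in most runs values lie on both sides of 0.

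The lines also differed without salt. Of the 161 members tested, 34 were up-regulated DEGs in Roma-CK relative to M-81E-CK (21.1%), against a background of 16.9% of all loci, and 13 were down-regulated DEGs (8.07%), against 9.05%. By adjusted p, 44 members differed (27.3%), which was the share of all loci (27.3%). Under salt, 24 of the 164 members tested were up-regulated in Roma-salt relative to M-81E-salt (14.6%), against 18.1%, and 18 were down-regulated (10.98%), against 8.83%, and 41 members differed by adjusted p (25.0%), against 30.4%. Leaving out 1 library left 29 to 41 members by adjusted p without salt, with 29 without M-81E-CK1, and 27 to 40 under salt, with 27 without Roma-salt1. Over all loci, 5336 to 8267 passed in such fits without salt, against 8990, and 7222 to 8503 under salt, against 10088. Of the 44 calls without salt 26 passed with any 1 of the 6 libraries left out, as did 19 of the 41 under salt. The split depends on the scale of the libraries. The median of loci above 0 in all libraries was higher in Roma, by 0.46 on the log2 scale without salt and 0.40 under salt, and after rescaling to a common median the members split into 16 higher (9.94%) and 21 lower (13.04%) without salt, against 10.7% and 12.9% of all loci. Under salt they split into 13 higher (7.93%) and 26 lower (15.9%), against 11.9% and 12.5% of all loci. Fold changes named as rescaled are on this scale, and all other fold changes refer to the FPKM as deposited, as do adjusted p-values except those given as after rescaling.

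The class III peroxidase SORBI_3005G051500 differed in which libraries held any value. It was listed at 0, 18.5 and 0 FPKM in Roma-salt and at 0, 0 and 0 FPKM in Roma-CK, and had 63.5, 92.5 and 87.8 FPKM in M-81E-salt and 97.6, 127 and 41.6 FPKM in M-81E-CK. All but 1 of the Roma libraries were listed at 0 and every M-81E library was above 40 FPKM, so no fold is given. A listed 0 can be a failed estimate. The adjusted p was 0.0314 under salt and 0.000659 without, and the call under salt was lost with a pseudocount of 0.1 (adjusted p = 0.0508) and in 5 of the 6 fits that left out 1 library. Of the other loci lower in Roma, SORBI_3001G314000 had 1.71, 0.581 and 0.589 FPKM in Roma-CK and 9.74, 10.04 and 10.5 FPKM in M-81E-CK (log2 fold change −2.55, rescaled −2.88, adjusted p = 0.00157). SORBI_3006G277800 had 6.38, 4.05 and 43.9 FPKM in Roma-CK and 159, 162 and 135 FPKM in M-81E-CK (−3.68, rescaled −4.11, adjusted p = 0.0256). SORBI_3008G010400 had 4.85, 3.52 and 2.15 FPKM in Roma-salt and 8.19, 8.69 and 13.3 FPKM in M-81E-salt, and 3.79, 4.83 and 6.68 FPKM in Roma-CK and 10.97, 9.84 and 13.6 FPKM in M-81E-CK. It was lower in Roma under both treatments (rescaled −1.65, adjusted p = 0.0212 under salt and rescaled −1.45, adjusted p = 0.0185 without). So was the highest member, SORBI_3009G055100 (log2 fold change −2.01, rescaled −2.41, adjusted p = 0.0164 under salt and −1.24, rescaled −1.703, adjusted p = 0.008702 without).

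The neighbours by identifier SORBI_3009G144900 and SORBI_3009G144800, and also SORBI_3009G145700, were all lower in Roma-CK than in M-81E-CK. SORBI_3009G144800 had 13.9, 14.2 and 19.9 FPKM in Roma-CK and 44.6, 37.9 and 32.4 FPKM in M-81E-CK (rescaled −1.65, adjusted p = 0.00793), and under salt its groups overlapped. Under salt, SORBI_3006G277500 had 10.8, 20.1 and 10.9 FPKM in Roma-salt and 64.2, 47.98 and 49.9 FPKM in M-81E-salt (−1.93, rescaled −2.31, adjusted p = 0.00496), and SORBI_3001G444400 had 3.95, 3.54 and 3.59 FPKM in Roma-salt and 10.96, 10.2 and 17.8 FPKM in M-81E-salt (−1.54, rescaled −1.88, adjusted p = 0.00498). SORBI_3002G003500, SORBI_3009G032900 and SORBI_3003G152200 were also lower in Roma under salt (adjusted p = 0.0163, 0.00835 and 0.0155).

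The named loci higher in Roma kept their direction where a rescaled value is given. Over all members, those higher in Roma by adjusted p went from 30 to 15 without salt after rescaling, and from 24 to 10 under salt. For all loci these counts went from 6079 to 3148 without salt and from 7047 to 3962 under salt. SORBI_3009G032800 had 13.7, 13.4 and 22.8 FPKM in Roma-CK and 0.782, 1.498 and 0.743 FPKM in M-81E-CK (log2 fold change 3.12, rescaled 2.79, adjusted p = 0.00113), and its neighbour SORBI_3009G032700 had 5.303, 5.14 and 3.38 FPKM in Roma-CK and 0.533, 0.858 and 0.2396 FPKM in M-81E-CK (1.86, rescaled 1.6004, adjusted p = 0.00374). SORBI_3002G416900 had 5.87, 10.8 and 7.28 FPKM in Roma-salt and 1.76, 2.26 and 1.58 FPKM in M-81E-salt, and 9.09, 10.8 and 9.0003 FPKM in Roma-CK and 1.703, 1.297 and 0.528 FPKM in M-81E-CK. It was higher in Roma under both treatments with no overlap (rescaled 1.31, adjusted p = 0.00512 under salt and rescaled 1.997, adjusted p = 0.00206 without). SORBI_3001G328100 had 6.86, 5.68 and 4.41 FPKM in Roma-salt and 1.09, 1.34 and 1.13 FPKM in M-81E-salt, and 5.41, 7.01 and 4.96 FPKM in Roma-CK and 1.61, 1.28 and 1.66 FPKM in M-81E-CK (rescaled 1.31, adjusted p = 0.00198 under salt and rescaled 1.09, adjusted p = 0.00252 without). SORBI_3009G033500 was listed at 0 in every M-81E-salt library and had 4.23, 8.54 and 5.01 FPKM in Roma-salt.

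SORBI_3010G245800, among the 10 highest members, had 99.4, 174 and 134 FPKM in Roma-salt and 74.7, 87.2 and 19.4 FPKM in M-81E-salt, and 98.4, 60.8 and 119 FPKM in Roma-CK and 11.7, 29.8 and 19.8 FPKM in M-81E-CK. It was higher in Roma-CK than in M-81E-CK (rescaled 1.72, adjusted p = 0.0143). SORBI_3003G127100, SORBI_3003G050300, SORBI_3002G391200 and SORBI_3003G152100 were higher in Roma-CK too, with a wide spread within groups. SORBI_3003G127100, for example, had 15.2, 76.8 and 60.3 FPKM in Roma-CK and 4.71, 5.22 and 1.88 FPKM in M-81E-CK (adjusted p = 0.0209), and under salt 1 library of Roma and 1 of M-81E stood far above the others of their group. After rescaling, SORBI_3003G152100 no longer passed (adjusted p = 0.117), and SORBI_3002G391200 did not with a pseudocount of 0.1 (adjusted p = 0.0553). Under salt, SORBI_3006G243600 had 21.8, 19.4 and 18.7 FPKM in Roma-salt and 6.94, 8.704 and 11.01 FPKM in M-81E-salt (rescaled 0.73, adjusted p = 0.00685), and SORBI_3003G140400 was near 0 in M-81E-salt, with 1.13, 1.39 and 1.46 FPKM in Roma-salt and 0.0337, 0.0164 and 0 FPKM in M-81E-salt (rescaled 1.09, adjusted p = 0.000712).

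Members of other classes were higher in Roma as well. The catalase SORBI_3004G011566 was higher in Roma under both treatments (log2 fold change 1.72, rescaled 1.33, adjusted p = 0.0341 under salt and 1.35, rescaled 0.93, adjusted p = 0.00213 without), and the difference under salt was lost after rescaling (adjusted p = 0.0816). The NADPH oxidase SORBI_3007G148300 had 7.41, 7.26 and 7.46 FPKM in Roma-salt and 2.61, 2.35 and 2.49 FPKM in M-81E-salt, and 8.59, 8.11 and 6.24 FPKM in Roma-CK and 2.87, 3.75 and 3.19 FPKM in M-81E-CK. Libraries of a group lay close together and the lines did not overlap (rescaled 0.95, adjusted p = 0.000594 under salt and rescaled 0.63, adjusted p = 0.00707 without). A second NADPH oxidase, SORBI_3002G214200, had 20.5, 20.9 and 22.7 FPKM in Roma-salt and 10.4, 10.3 and 8.94 FPKM in M-81E-salt, and 19.2, 16.3 and 13.6 FPKM in Roma-CK and 9.35, 8.11 and 8.88 FPKM in M-81E-CK (rescaled 0.67, adjusted p = 0.00131 under salt and rescaled 0.395, adjusted p = 0.0116 without). It was singled out after its values were seen, and the difference without salt did not pass after rescaling (adjusted p = 0.0562). The peroxiredoxin SORBI_3003G124300 had 31.01, 24.2 and 15.2 FPKM in Roma-salt and 9.08, 9.16 and 8.57 FPKM in M-81E-salt (rescaled 0.87, adjusted p = 0.0165), and this call was also lost after rescaling (adjusted p = 0.0564). Calls of named loci that were also lost when some 1 library was left out were those of SORBI_3006G277800, SORBI_3008G010400, SORBI_3003G127100 and SORBI_3003G152100 without salt, and of SORBI_3005G051500, SORBI_3009G055100, SORBI_3002G003500, SORBI_3008G010400, SORBI_3003G124300 and SORBI_3004G011566 under salt.

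The remaining members were at low or uneven levels. There were 17 cases, in 10 members, in which 1 library of a group was listed at 0 while the other 2 held at least 1 FPKM, and these zeros entered the fits as deposited. No member was listed at 0 in all 6 libraries of 1 line while averaging at least 1 FPKM in the other.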

How the data were processed

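Roots of both lines were sequenced in 12 libraries, 3 per group, with the group and the replicate of each library read from its title. Per the labels, the authors trimmed reads with cutadapt, mapped them with Bowtie2 and TopHat2 and assembled transcripts with StringTie. Versions, genome build and annotation are not given in the sources used here. The labels name only a small RNA library kit, whereas the methods describe strand-specific, paired libraries depleted of ribosomal RNA. The deposited values are FPKM per locus, normalised by the authors to transcript length and mapped fragments, with no counts. The study gives reads and mapped shares per group, the mapped share being lowest in Roma-CK, but none per library. The absolute depth of each library is therefore unknown, and no counting interval was computed. FPKM differences below the precision of the unknown depth cannot be resolved, and all 12 value columns were matched to a sample.

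Fits were made in R 4.3.3 with limma 3.58.1 (eBayes with trend) on log2(FPKM + 1) for loci above 0 FPKM in at least 1 fitted library, with all loci of the table in each fit and Benjamini-Hochberg adjustment over them. Fold changes on this scale understate the change of low loci. Each salt and each line comparison used its 6 libraries, and the interaction used all 12. The study used Ballgown, whose linear model was run as an alternative. With 3 libraries against 3, the two-sided exact permutation test over 20 assignments cannot go below p = 0.1. Members and lists were chosen with earlier results of these data known. Classes came from GO terms and descriptions, which left 93 members unclassed, and then from the KEGG entries of the table, a step added after the table was seen. Loci named are, per comparison, up to 8 DEGs in each direction with the largest fold change among adjusted p under 0.05, then DEGs with a mean of at least 1 FPKM and no overlap between groups. Members passing the interaction, the 10 highest by mean, and catalases and ascorbate peroxidases with a mean of at least 1 FPKM are also named. Shoot markers sought by description matched 0 loci, and the light-harvesting list was added afterwards from KEGG. No gene of the RefSeq table given matched these identifiers (0 matched), and no sequence was used. The fits were tested on simulated data before use. Other steps used matplotlib 3.10.9, scipy 1.17.1, pandas 2.3.3 and numpy 2.4.6 in Python 3.11.15.

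The alternatives were a pseudocount of 0.1, a minimum mean of 1 FPKM, rescaling to a common median, no variance trend, a replicate block, leaving out each replicate, Ballgown's model, all 12 libraries in 1 fit, and the limma fold change as threshold.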

Additional observations from a re-analysis of the deposited data

Results flagged for a closer look

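The salt response of 3 class III peroxidases differed between the lines by the interaction of line and treatment (limma, Benjamini-Hochberg adjusted over 34352 loci), 1.81% of the 166 members and the same share as over all loci (1.81%). The response in Roma minus that in M-81E was −2.16 on the log2 scale for SORBI_3003G152200 (adjusted p = 0.010001), −1.73 for SORBI_3009G032900 (adjusted p = 0.0398) and −1.02 for SORBI_3003G140700 (adjusted p = 0.0344). The calls of SORBI_3009G032900 and SORBI_3003G140700 were lost with a replicate block (adjusted p = 0.0971 and 0.0674) and in most fits that left out 1 library. The Roma-salt libraries of SORBI_3003G152200 were all below the Roma-CK libraries and its M-81E-salt libraries all above the M-81E-CK libraries. Groups of 3 libraries are too small for a test of single outlying libraries, and no data outside the comparisons were searched for further signals.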

How the results depend on the processing

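The counts of members that met the DEG thresholds (32 in Roma and 23 in M-81E under salt, 47 between the lines without salt and 42 under salt) stayed within 1.5 times under a pseudocount of 0.1, a minimum mean of 1 FPKM, a common median, no variance trend and 1 fit of 12 libraries. With the limma fold change as threshold they were 15 in M-81E under salt, 31 between lines without salt and 25 under salt, and with Ballgown's model 19 in Roma under salt, 11 between lines without salt and 7 under salt. Leaving out 1 library gave 27 to 38 in Roma, 19 to 24 in M-81E, 40 to 49 between lines without salt and 31 to 46 under salt, and 1 to 6 for the 3 members of the interaction. Replicate numbers did not pair libraries: correlations of deviations lay between −0.081 and 0.057 over 6 pairs of groups, and in 7 of 36 cases a library correlated best with its own number. With a replicate block the count was 29 in Roma and 23 in M-81E under salt, 43 between lines without salt and 34 under salt, and 1 for the interaction.

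Adjusted calls moved more. Against 9 members in Roma, 30 passed in 1 fit of 12 libraries (8 of the 9 among them), 0 with the replicate block and 0 with Ballgown's model. Over all loci of Roma, against 587, the counts were 2593, 0 and 25 in the same order, so the moves were not particular to the members. Against 5 in M-81E, 8 passed in 1 fit of 12 libraries and 8 with a minimum mean of 1 FPKM (all 5 among them in both), 0 with the block and 1 with Ballgown's model, which was none of the 5. Over all loci of M-81E, against 266, the counts were 871, 422, 2 and 19 in the same order. Between the lines without salt, against 44, 24 passed with the block (21 of the 44 among them) and 1 with Ballgown's model. Under salt, against 41, 18 passed with the block (17 of the 41 among them) and 0 with Ballgown's model. Over all loci the counts also fell in each of these fits, and Ballgown's model kept only a small part in either comparison. Relative to the main fit, the block lowered the members' count less than that of all loci without salt, and more under salt. For the 17 calls in the salt comparisons and the interaction, the alternatives in pseudocount, scaling, block and left-out libraries gave 58 fits that passed and 113 in the same direction that did not, and none changed direction. Depth limits what can be said of the 45 members with a mean under 1 FPKM.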
